A study of Brassica napus with 6 samples.

Results

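The 200 genes described here kept nearly the same scaled count in 6 RNA-seq libraries of Brassica napus (oilseed rape), made from heat-treated microspore cultures and from the microspores they started from. A microspore normally develops into a pollen grain, and in Brassica napus a spell of heat in culture can divert it towards forming an embryo. HS4d is the group of 3 heat-shocked cultures, held at 32 °C throughout and sampled on day 4, when both microspores and proembryos were present, so each library mixes cell types. VM is the group of 3 samples of vacuolated (late unicellular) microspores taken at day 0, labelled untreated. All 6 libraries come from line DH-4079 of cultivar Topas. No unheated day 4 culture is among them, so the effects of heat, culture time and development cannot be told apart. The series calls its replicates biological.

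The genes were chosen on the measured counts themselves. Raw counts were divided by a size factor for each library, the median over genes of the ratio to each gene's geometric mean. Of 104573 rows, 5212 had 500 or more scaled counts in every library. From these, 43 of the most abundant genes of the VM libraries or of HS4d replicates 1 and 2 were left out, which gave 5169 eligible genes. The 200 with the smallest ratio of highest to lowest scaled count over the 6 libraries were taken, 3.87% of the eligible genes. Their steadiness is therefore how they were chosen and not a result, and the values that follow from it are given without a test.

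RNA-seq measures the share of a library that each gene takes, so a gene can be steady only relative to a scale. Size factors of this kind assume that most genes do not change between the samples. In the edgeR tests given below, 28.7% of tested genes had an adjusted p under 0.05 between HS4d and VM. Without HS4d replicate 3 the share was 73.0%, so the assumption was not shown to hold for these libraries. Genes with steady counts are of use in plant work mainly as reference genes, against which transcripts are normalised in quantitative PCR. A pollen grain and an early embryo still share the machinery that all living cells need, and genes for that machinery are the usual candidates. Whether the 200 genes belong to it is not known here, because the files give identifiers only. All 200 have GSBRNA2T identifiers, the files pair none of them with a product name, and 0 of the identifiers in the count table were found in the RefSeq gene table of the Da-Ae assembly. For the same reason the labelled cell types were not checked against marker genes.

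Total counts were 29144220 to 39558658 in HS4d and 31689399 to 33375742 in VM. The size factors did not follow these totals. They were 0.487, 0.686 and 1.19 in HS4d replicates 1, 2 and 3, and 1.39, 1.47 and 1.37 in VM replicates 1, 2 and 3. HS4d replicate 3 thus lay nearer to VM than to the other HS4d libraries on this measure, and it stands apart from them over the whole table. Several results are therefore also given without it. The median raw count of a steady gene was 423, 592.5 and 1025 in HS4d and 1191, 1280 and 1228 in VM. Counting alone gives such a count an error of 3.12% to 4.86% in HS4d and 2.80% to 2.90% in VM, and the reads carry no molecular identifiers, so this covers counting error only.

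The ratio of highest to lowest scaled count ran from 1.07 to 1.26 among the 200 genes, with a median of 1.22. Only 4 genes had a ratio of up to 1.1, and 66 had one of up to 1.2. The median over all 5169 eligible genes was 2.11, and the highest was 119. A ratio of up to 1.5 was found in 916 eligible genes (17.7%) and one of up to 2 in 2334 (45.2%). The steady genes are thus the low end of a continuous distribution, with no gap above them. The last gene taken, GSBRNA2T00008719001, had a ratio of 1.259, and the first left out, GSBRNA2T00042040001, had 1.260. The lowest scaled count among the 200 genes was 501, in VM replicate 2 for GSBRNA2T00101776001. Outside the limit of 500, the nearest gene with a ratio as small, GSBRNA2T00045181001, reached 499. In all, 40 genes with ratios as small had a lowest scaled count between 400 and 500. None of the 43 abundant genes left out would have been taken, since their smallest ratio was 2.04.

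**Figure D1:**
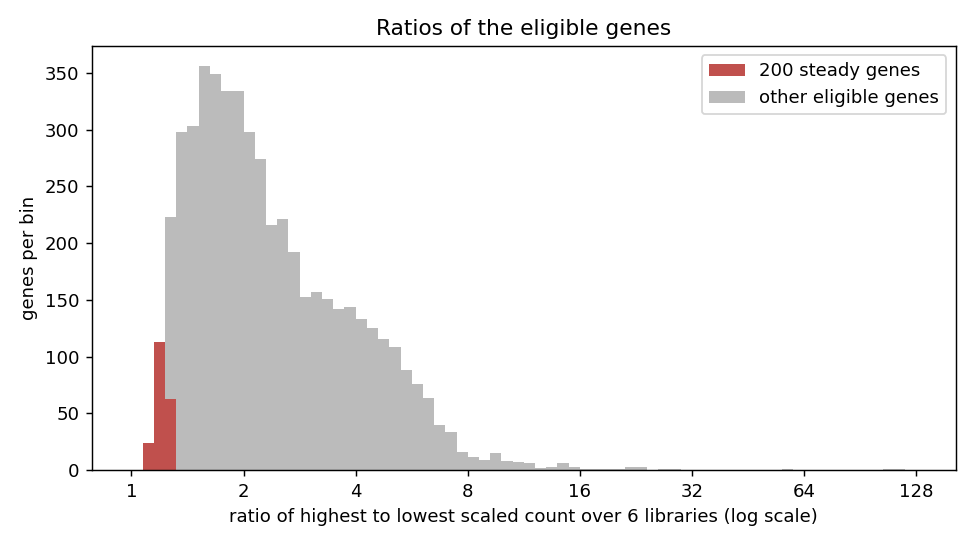
Histogram of the ratio of highest to lowest scaled count over the 6 libraries (log scale) for the 5169 eligible genes, stacked, with the 200 steady genes in red and the others in grey. The steady genes fill the lowest bins, up to a ratio of 1.26, and join the rest without a gap.

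The 5 genes with the smallest ratio had ratios of 1.07 to 1.104. GSBRNA2T00014699001 had scaled counts of 676, 699 and 660.2 in HS4d replicates 1, 2 and 3, and 667, 709 and 677 in VM replicates 1, 2 and 3. The groups overlapped, and the highest and the lowest value differed by a ratio of 1.07. GSBRNA2T00123125001 had 1091, 1146 and 1143 in HS4d and 1079, 1169 and 1082 in VM. Its highest and lowest value were both in VM. GSBRNA2T00065097001 had 1336, 1299.6 and 1298 in HS4d and 1286, 1359 and 1399.8 in VM. Here too both extremes were VM libraries. GSBRNA2T00132009001 had 1352, 1243 and 1274 in HS4d and 1256, 1232 and 1329.9 in VM. Its highest value was in HS4d replicate 1. GSBRNA2T00017391001 had 1050.0, 1036 and 1080.1 in HS4d and 1033, 979 and 1014 in VM. Of the 5 it alone had groups that did not overlap, with every HS4d library above every VM library, by a mean of 0.07 on the log2 scale. Identifiers were taken by a rule on their values, and scaled counts also depend on transcript length, so counts of different genes do not rank their expression.

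**Figure D2:**
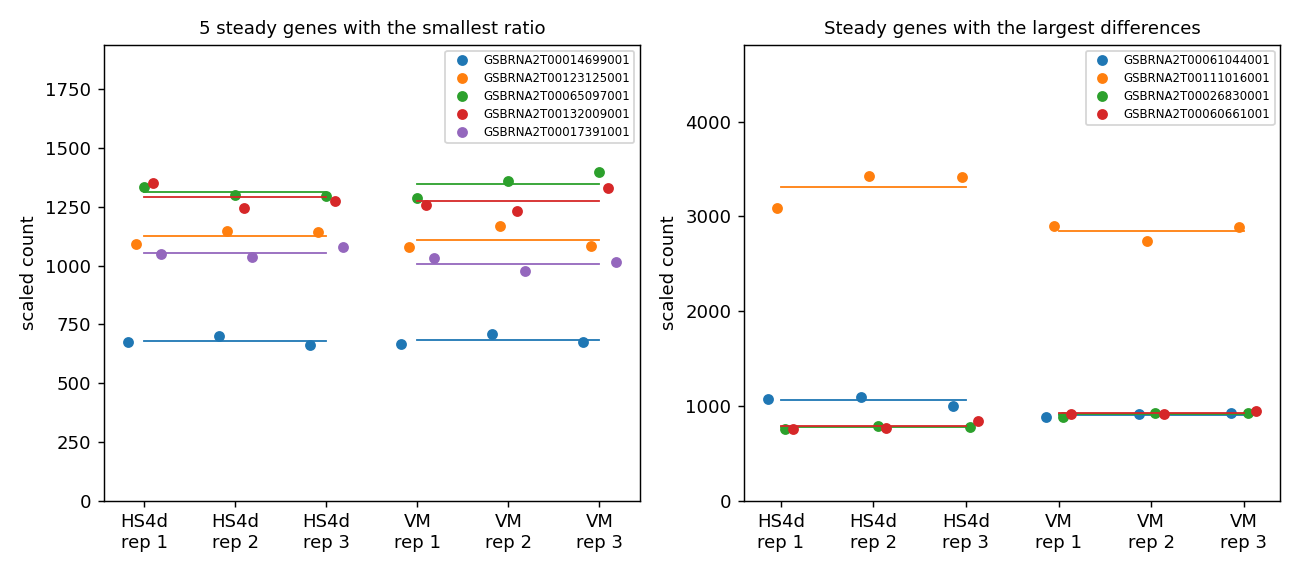
Scaled counts in the 6 libraries, with HS4d on the left and VM on the right of each panel, for the 5 genes with the smallest ratio and for the 4 with the largest differences between groups. Points are single libraries and lines are the mean of 3. In the left panel the lines of the groups lie close together, and in the right panel the points of the groups do not overlap.

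Mean scaled counts of the 200 genes ran from 525 to 5043, with a median of 883. GSBRNA2T00053878001 had the highest mean, with 4831, 4797 and 5384 in HS4d and 4765, 4734 and 5746 in VM. Its 2 high values were in replicate 3 of each group. GSBRNA2T00001340001 came next, with 4342, 4713 and 4445 in HS4d and 4774, 4592 and 4915 in VM. At the other end, GSBRNA2T00101776001 had 509.6, 535 and 578 in HS4d and 510.1, 501 and 518 in VM. GSBRNA2T00135433001 had 512, 637 and 508 in HS4d and 576, 518 and 532 in VM, with HS4d replicate 2 the highest. With the eligible genes divided into 4 groups of about equal size by mean scaled count, the groups held 113, 46, 29 and 12 of the 200 steady genes from the lowest to the highest. The median ratio of all eligible genes in these groups was 1.61, 2.01, 2.45 and 3.80 in the same order. Part of this order is set by the choice itself, since a gene with a mean just above 500 and no library below 500 cannot have a high ratio. No steady gene was among the 100 most abundant of any library.

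The spread was also expressed relative to counting error, as a description of the chosen counts. The chi-square of the 6 counts against constant scaled counts, per degree of freedom, is near 1 where only counting error is present, which is not to be assumed of separate cultures. Its median was 5.02 for the steady genes and 103 for all eligible genes. It was lowest, at 0.65, in GSBRNA2T00014699001. It was highest, at 44.0, in GSBRNA2T00053878001, the gene with the highest mean scaled count. At the same relative spread this chi-square grows with the count. It therefore does not rank genes or sets of different abundance by steadiness. The coefficient of variation over the 6 libraries was 2.77% to 9.64%, with a median of 7.40%, against a median of 29.9% over all eligible genes.

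How scattered the HS4d group was depended on HS4d replicate 3. The median SD of log2 scaled counts of the steady genes was 0.11 in HS4d and 0.07 in VM. Without HS4d replicate 3 it was 0.08 in HS4d, and pairs of VM libraries gave 0.05 to 0.07. Over all eligible genes it was 0.41 in HS4d and 0.12 in VM, and without HS4d replicate 3 it was 0.11 in HS4d. HS4d replicate 3 was the highest library for 45 (22.5%) and the lowest for 47 (23.5%) of the 200 genes, and lay outside the range of the other 5 for these 92. Over all eligible genes it was highest for 27.8% and lowest for 20.1%, so this was not particular to the steady genes. HS4d replicates 1 and 2 were each highest for 39 of the steady genes (19.5%), and lowest for 39 (19.5%) and 23 (11.5%). Among eligible genes these replicates were highest for 17.0% and 15.4% and lowest for 22.6% and 25.9%. In VM, replicates 1, 2 and 3 were highest for 9, 25 and 43 genes and lowest for 38, 46 and 7. VM replicates 3 and 1 had the highest and the lowest median log2 deviation from the genes' own means, 0.04 and -0.05. All eligible genes leaned the same way, with VM replicate 3 highest for 31.4% and lowest for 4.22% of them, and VM replicate 1 highest for 2.30% and lowest for 11.4%. With TMM factors the order turned, and the median scaled count of the steady genes was 861 in VM replicate 3 and 866 in VM replicate 1, against 894 and 857 with size factors.

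**Figure D3:**
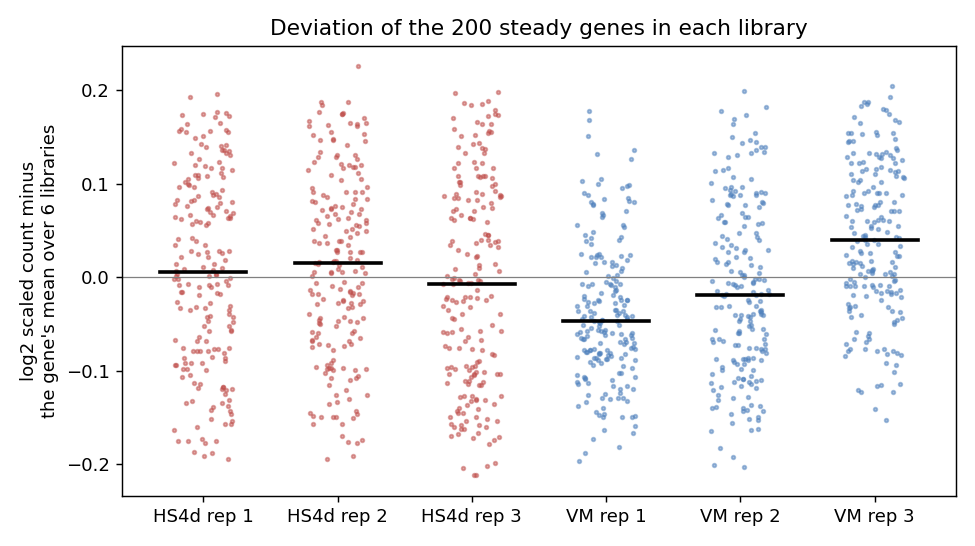
Deviation of each of the 200 steady genes (points) from its own mean log2 scaled count, by library, with HS4d in red and VM in blue. Black lines are medians. On this scale the medians lie between -0.05 in VM replicate 1 and 0.04 in VM replicate 3, an order that turns with TMM factors.

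The mean of log2 scaled counts in HS4d minus that in VM lay between -0.23 and 0.22 for all 200 genes, with a median of 0.02. It was positive in 112 genes and no larger than 0.1 in either direction in 121. The median absolute difference was 0.08 for the steady genes, against 0.50 for all eligible genes. By edgeR's quasi-likelihood test over all 56949 genes kept by the filter on low counts, 16327 genes (28.7%) had an adjusted p under 0.05, and 0 of the 200 steady genes did. At an unadjusted p under 0.05 the count among the 200 was also 0, and the count over all genes is not given. The DESeq2 Wald test and limma-voom called 24526 and 14380 of the same 56949 genes, and each called 0 of the 200. Without HS4d replicate 3, edgeR called 41585 of the same 56949 genes (73.0%) and again 0 of the 200. The genes were chosen for small differences in these same libraries, so nothing is read from these counts of 0.

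In some of the genes the groups did not overlap, although the differences were small and none was called. With 3 libraries in each group, some unchanged genes are also parted in this way. Every HS4d library lay above every VM library in 19 of the 200 (9.5%), against 24.0% of the 56949 tested genes and 20.6% of the eligible genes. Every HS4d library lay below every VM library in 16 (8.0%), against 28.0% of tested and 27.2% of eligible genes. The choice on the ratio limits such genes, so these shares are again a description. The largest positive differences were in GSBRNA2T00061044001 and GSBRNA2T00111016001, at 0.22 on the log2 scale in both. GSBRNA2T00061044001 had 1073, 1097 and 1003 in HS4d and 882, 909 and 928 in VM (means 1057 ± 49.0 and 906 ± 23.0, SD, n = 3 each). GSBRNA2T00111016001 had 3086, 3432 and 3421 in HS4d and 2901, 2742 and 2894 in VM. For both genes the gap between the groups was wider than the range of the 3 VM libraries.

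The largest negative differences, at -0.23 in both, were in GSBRNA2T00026830001 and GSBRNA2T00060661001. GSBRNA2T00026830001 had 760.3, 785 and 777 in HS4d and 886, 924 and 921 in VM (means 774 ± 12.5 and 910.2 ± 21.2, SD, n = 3 each). All 3 HS4d libraries were alike and low. GSBRNA2T00060661001 had 756, 770.1 and 842 in HS4d and 916, 914 and 949.7 in VM. Here HS4d replicate 3 lay between the other HS4d libraries and VM. The count of genes without overlap, 35 in both directions, was 66, 62 and 63 when HS4d replicate 1, 2 or 3 was left out and 64 without VM replicate 3. Fewer libraries make an absence of overlap easier to meet, and the shares over all genes are not given for these runs.

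On the scale of library totals none of these genes was steady. Their median was 14.5, 15.0 and 32.1 CPM (counts scaled to the library total) in HS4d replicates 1, 2 and 3, and 37.6, 39.0 and 36.8 CPM in VM. For all 200 genes HS4d replicates 1 and 2 were below every other library, and for 165 HS4d replicate 3 was also below every VM library. The same counts over all genes are not given here, so these are not read as particular to the 200 genes. The ratio of highest to lowest CPM ran from 2.25 to 3.37. Together the 200 genes held 0.359%, 0.375% and 0.796% of all counts in HS4d and 0.918%, 0.948% and 0.912% in VM, or 0.51% ± 0.248 and 0.926% ± 0.0192 (SD, n = 3 each). The means had a ratio of 0.551, which was 0.396 without HS4d replicate 3. The whole table moved with the scale too. In edgeR fits the median log2 fold change, HS4d over VM, was -0.82 for the steady genes and -0.78 for all tested genes with library totals, and 0.05 and 0.07 with TMM factors. In bulk samples fewer cells that express a gene and less of its RNA per cell cannot be told apart, and the files hold no measure of RNA per cell.

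**Figure D4:**
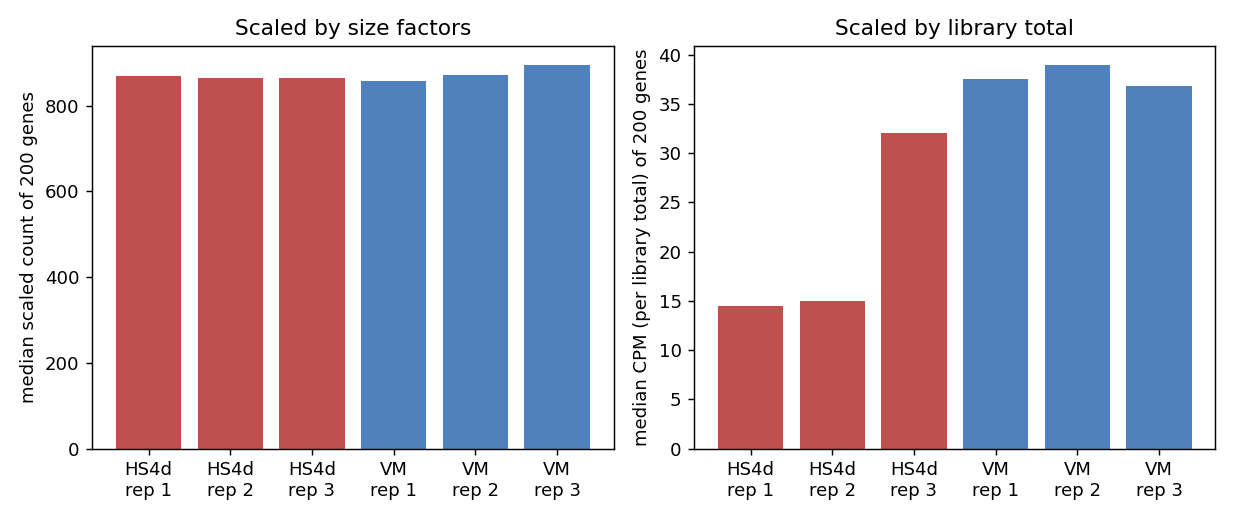
Median of the 200 steady genes in each library, as scaled counts (left) and as CPM (right), with HS4d in red and VM in blue. The scaled medians lie between 857 and 894, while the CPM medians lie between 14.5 and 32.1 in HS4d and between 36.8 and 39.0 in VM.

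A few abundant genes took a larger part of the HS4d libraries. In each library the 100 genes with the highest CPM took 36.3%, 38.4% and 11.7% of its counts in HS4d and 8.19%, 6.69% and 7.55% in VM. With those genes taken out of each total, the steady genes held 0.563%, 0.609% and 0.901% of the remaining counts in HS4d and 1.00%, 1.02% and 0.986% in VM. The distance between the groups was thus smaller but present without the most abundant genes, with a ratio of means of 0.691. Choosing instead the 200 genes with the smallest ratio on library totals gave a set that shared 0 genes with the one described. Only 86 of the 200 steady genes were eligible on that scale, and the best placed of them came at position 1105 of 3268. The genes chosen on library totals had a median log2 difference of 0.90 between HS4d and VM on the size factor scale. Which genes count as steady thus depends on the scale.

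The authors' deposited values, a variance-stabilising transformation (VST) on a log2-like scale, put the steady genes between these scales. They cover 5 libraries here, without HS4d replicate 3. The medians of the 200 genes were 9.14 and 9.13 in HS4d replicates 1 and 2 and 9.35, 9.36 and 9.38 in VM. The range over the 5 libraries had a median of 0.35 for the steady genes and 0.86 for all eligible genes, and it was below 0.86 for all 200. Of the 200 eligible genes with the smallest VST range, 42 were among the steady genes. The median difference, mean of HS4d minus mean of VM, was -0.19 for the steady genes, where the scaled counts of the same 5 libraries gave 0.02. Over all eligible genes the median VST difference was -0.36, so the shift was not particular to the steady genes. Both HS4d values lay below every VM value for 137 of the 200 genes, and for 57.4% of all eligible genes. How the transformation was set is not stated in the labels or the file.

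Since the choice used every library, steadiness was also followed in libraries that took no part in it. The rule was run again without 1 library, and that library was compared with the mean of those used. The limits of 1.2-fold and 2-fold used here were chosen after the data were seen. Each run chose 200 genes of its own, of which 109, 114 and 69 were among the steady genes without HS4d replicates 1, 2 and 3, and 157, 166 and 156 without VM replicates 1, 2 and 3. In HS4d replicates 1 and 2, when left out, 74.0% and 68.5% of the chosen genes lay within 1.2-fold of that mean, against 28.1% and 27.1% of all eligible genes. In HS4d replicate 3 the share was 37.5%, against 28.9%. There 22 of the 200 chosen genes were more than 2-fold away, and 89.0% lay within 2-fold, against 77.7% of eligible genes. In VM replicates 1, 2 and 3 the shares within 1.2-fold were 91.0%, 93.5% and 88.5%, against 45.1%, 41.6% and 40.5%. Among these 6 runs HS4d replicate 3 was the library that the chosen genes met least closely.

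HS4d replicates 1 and 2 resemble each other, so both were also left out together, a step added after the data were seen. Of the 200 genes then chosen on VM and HS4d replicate 3, from 10446 eligible genes, 16 were among the steady genes. In HS4d replicates 1 and 2, 21.5% and 18.5% of them lay within 1.2-fold of the mean of the libraries used, against 17.4% and 17.1% of eligible genes. Genes chosen on the 3 VM libraries alone gave 14.5%, 16.5% and 35.5% in HS4d replicates 1, 2 and 3, against 15.5%, 15.5% and 27.7%. For that choice 14413 genes were eligible, with no limit set on their counts in HS4d. For the genes steadiest among microspores at day 0, the share within 1.2-fold was thus slightly below that of all eligible genes in HS4d replicate 1, slightly above it in replicate 2 and higher in replicate 3. Within 2-fold the shares lay further apart. In HS4d replicates 1, 2 and 3, 66.0%, 66.5% and 82.5% of the genes chosen on VM alone lay within it, against 51.3%, 51.8% and 72.7% of eligible genes. These genes share libraries and are not independent, and no test was made.

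**Figure D5:**
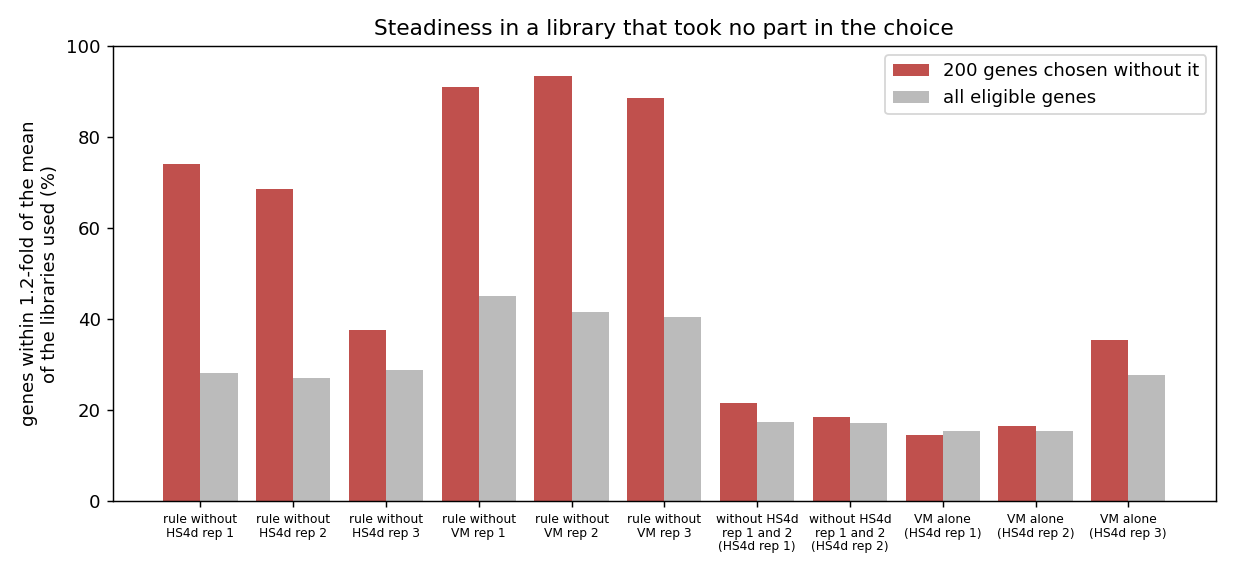
Share of genes within 1.2-fold of the mean of the libraries used, in a library that took no part in the choice. Red bars are the 200 genes chosen and grey bars all genes eligible in the same run. Labels name the libraries left out and, for the 5 pairs on the right, in brackets the library followed. The red bars stand at 37.5% for HS4d replicate 3, at 88.5% or more for VM libraries, and near the grey bars where HS4d replicates 1 and 2 were left out together.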

How the data were processed

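RNA was sequenced from 3 HS4d and 3 VM samples as non-directional, paired-end libraries, per the labels' protocols. The authors deposited raw counts per gene and VST values on a log2 scale. Per the submitters' processing notes, fastp 0.22.0 and HISAT2 were used upstream together with DESeq2. For the counting program, the genome build and multi-mapped reads, settings were not given in the sources used here. Brassica napus carries close homoeologous gene copies, so counts may be divided or merged between copies, and reads from antisense partners cannot be told apart.

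Size factors used the 55275 rows with counts in all 6 libraries. HS4d was tested against VM with edgeR 4.0.16 in R 4.3.3 (filterByExpr, TMM, quasi-likelihood F test, group only, Benjamini-Hochberg over 56949 genes). Alternatives used limma 3.58.1 and DESeq2 1.42.0. The scripts were tested on simulated data. The members and lists were chosen with earlier results of these data known. Genes named are the 5 smallest ratios, the 2 highest and 2 lowest means, the 2 largest differences each way and the genes at the edges of the rule. A planned grouping by product name was not made, because no names were at hand.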

Additional observations from a re-analysis of the deposited data

How the results depend on the processing

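The choice of genes depended on the scale and on the libraries. Run again, the rule returned 174 of the 200 genes with TMM factors, 71 with upper-quartile factors and 0 with library totals. It returned 118 with a limit of 200 scaled counts, 63 with a limit of 1000 (all 63 that reach it), 69 to 166 without 1 library, and 16 without both HS4d replicates 1 and 2. The median ratio of the 200 genes was 2.75 with library totals and 1.3 with upper-quartile factors. The median log2 difference, HS4d minus VM, was -0.95 with library totals, -0.18 with upper-quartile factors and -0.19 in VST values. Groups did not overlap for 165 genes with library totals, for 95 with upper-quartile factors and for 45 to 66 without 1 library. Shares over all genes are not given for these settings, so the counts are not read as a change in the steady genes. The median VST range was 0.251 to 0.338 without 1 library. The mean share within 1.2-fold in libraries left out was 75.5% for single libraries, 20.0% for HS4d replicates 1 and 2 together and 22.2% for genes chosen on VM alone. The causes were not tested.

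No steady gene was called in any of the 12 alternative fits, which called 3014 to 41585 of all tested genes. The genes were chosen for small differences in these same libraries, so nothing is read from these counts of 0. With library totals their median log2 fold change was -0.82 with a median SE of 0.42, so the 0 there does not mean steadiness on that scale. Between libraries of the same replicate number, deviations from the group means had correlations of -0.012, -0.035 and -0.036. These gave no sign of pairing but cannot exclude it, since HS4d replicate 3 stood apart within its group. The replicate block called 4666 genes overall and 0 of the 200. The lowest adjusted p of a steady gene was 0.388 in edgeR and 0.067 to 0.603 over the alternatives. At an unadjusted p under 0.05, 26 of the 200 passed with library totals and 0 in each other fit. With library totals 15559 of all 56949 tested genes passed even after adjustment, so the 26 are not read as a result about these genes.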
